A study of Mus musculus with 12 samples.

Results

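The genes described here are Dtx3l and 8 members of the PARP family, namely Parp1, Parp3, Parp8, Parp9, Parp10, Parp11, Parp12 and Parp14. They were chosen by name, from a list drawn up after the differences between the groups in these same libraries were known. The levels and fold changes below are therefore the kind of values the choice drew on, no threshold for the choice is stated, and the p-values are no independent evidence. All 9 were found among the 54838 genes of the count table, and all 9 were among the 15938 genes with enough counts to be tested. The family members not on that list (Parp2, Parp4, Parp6, Parp16, Tiparp, Zc3hav1, Tnks and Tnks2, 8 genes, all tested) are given for comparison.

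RNA of whole ileum from wild-type C57BL/6J mice, adult females, was sequenced. The mice drank normal water or water with 25 mM ZnSO4 for 7 days, were then injected with 200 µg of the synthetic glucocorticoid dexamethasone (Dex) in PBS or with PBS alone, and were sampled 2 h later. The groups of 3 mice each are called water + PBS, water + Dex, ZnSO4 + PBS and ZnSO4 + Dex, and every mouse in all 4 groups had been injected. A single dose, a single time and a whole tissue were studied, so that fewer cells of a type and less RNA per cell cannot be told apart in any value below. The 12 libraries held between 10760132 and 11827487 counts. Normalised counts of the glucocorticoid target Fkbp5 were 10260 or more in all mice injected with Dex and at most 1222 in the others, and those of the metallothionein Mt1, a zinc-responsive gene, were 11970 or more in all mice given ZnSO4 and at most 1376 in the others.

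PARP enzymes move ADP-ribose from NAD+ onto proteins. Parp1, Parp2 and the tankyrases Tnks and Tnks2 build chains of it, most other family members attach single units, and Parp9 acts together with Dtx3l, a ubiquitin ligase of the Deltex family with which it forms a heterodimer. Parp1 and Parp3 are known for the response to DNA breaks. Parp9, Dtx3l, Parp14, Parp10, Parp11 and Parp12 are known as genes that interferon induces through the STAT and IRF factors, and several of them take part in defence against viruses.

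Parp14, Parp9 and Dtx3l lie beside each other on chromosome 16 (GRCm38, which is mm10). Parp14 runs on the minus strand from 35832874 to 35871544, Dtx3l on the minus strand from 35926511 to 35939151, and Parp9 on the plus strand from 35938470 to 35972605. Dtx3l and Parp9 start head to head: they share 682 bases, of which 458 are exonic in both, and the gap between Dtx3l and Parp14 is 54966 bases. Exons of the opposite gene cover 9.4% of the exonic length of Parp9 and 8% of that of Dtx3l. The libraries were stranded, but the strand setting of the counting is not given in the sources used here, so that reads from the shared part may have been counted for either gene.

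The start regions are shown because interferon acts on promoters through short motifs, and because the members include genes that fell and genes that did not. RefSeq windows (GRCm38.p6) from 250 bases before to 50 bases after a start site were at hand for 6 of the 9 members, and for 13 of the 17 genes when the other family members are added. None was at hand for Parp14, Parp9, Parp10 and Tnks, so no window of these genes was searched. Both strands were searched for the core of the interferon-stimulated response element (ISRE, letters GAAA and GAAA with 2 bases of any kind between them). The gamma-activated site bound by STAT dimers was searched as well (GAS, TTC and GAA with 3 bases between them). So were the glucocorticoid response element (GRE, GNACA and TGTNC with 3 bases between them) and a loose form of the metal response element (MRE, TGCNCNC). N stands for any base. Of all 32817 windows of this length, 3.43% held the ISRE core, 8.29% the GAS, 0.475% the GRE and 51% the loose MRE letters. Among the members with a window, the ISRE core and the GAS were found only in the window of Parp11, where they overlap, and the GRE in none. The window of Dtx3l (35938978 to 35939277) held none of these letters. Its start site lies inside the gene whose start, 35939151, is given above, so fewer than 250 bases before that start were searched. All but 71 of its bases lie in exons of Dtx3l or Parp9, and bases further upstream were not searched. Of the other family genes, Parp4 held overlapping ISRE cores and Parp16 a GAS. The stretches are written 5′ to 3′ along each gene, with the ISRE core and GAS letters in capitals.

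Parp11 (chr6:127446740-127446839, plus strand, the last 100 bases before its start, first capital 44 bases before it): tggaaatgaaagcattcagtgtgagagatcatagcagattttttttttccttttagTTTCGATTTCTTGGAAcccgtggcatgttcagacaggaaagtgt
Parp4 (chr14:56575429-56575528, plus strand, first capital 150 bases before its start): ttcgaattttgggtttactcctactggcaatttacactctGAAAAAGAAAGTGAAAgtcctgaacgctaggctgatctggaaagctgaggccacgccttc
Dtx3l (chr16:35939207-35939277, minus strand, the 71 bases of its window outside the exons of Dtx3l and Parp9; no motif): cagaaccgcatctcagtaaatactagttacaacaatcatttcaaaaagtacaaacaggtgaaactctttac

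Parp14, Parp9 and Dtx3l had the largest LFCs in size among the members in ZnSO4 + Dex against water + PBS, and in all 3 the level was lowest in the ZnSO4 + Dex group. The values are normalised counts, that is counts scaled to the mean library size with TMM factors. Parp14, a mono-ADP-ribosyltransferase with macrodomains and a cofactor of STAT6, had 2458, 2742 and 1819 in the water + PBS mice, 1386, 1354 and 1118 with Dex, 1406, 1386 and 1616 with ZnSO4, and 667, 538.0 and 605 with both. All mice of each treated group were below all water + PBS mice, and all ZnSO4 + Dex mice were below all others. The group means were 2340 ± 473 (SD, n = 3) in water + PBS and 603 ± 64.4 in ZnSO4 + Dex.

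Dtx3l had 2019, 2075 and 1604 normalised counts in the water + PBS mice, 1128, 1273 and 1017 with Dex, 1603, 1459 and 1392 with ZnSO4, and 656, 613 and 559 with both. The order of the groups differed from that of Parp14: the ZnSO4 + PBS mice were all above the water + Dex mice. Parp9 had 1717, 1746 and 1451 in the water + PBS mice, 1223, 1301 and 1098 with Dex, 1374, 1204 and 1271 with ZnSO4, and 652, 589 and 679 with both. For Parp9 the Dex group and the ZnSO4 group overlapped, and both lay below water + PBS and above ZnSO4 + Dex. The SD of the 3 mice was between 6.65% and 13.5% of the group mean for Parp9 and Dtx3l.

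**Figure D1:**
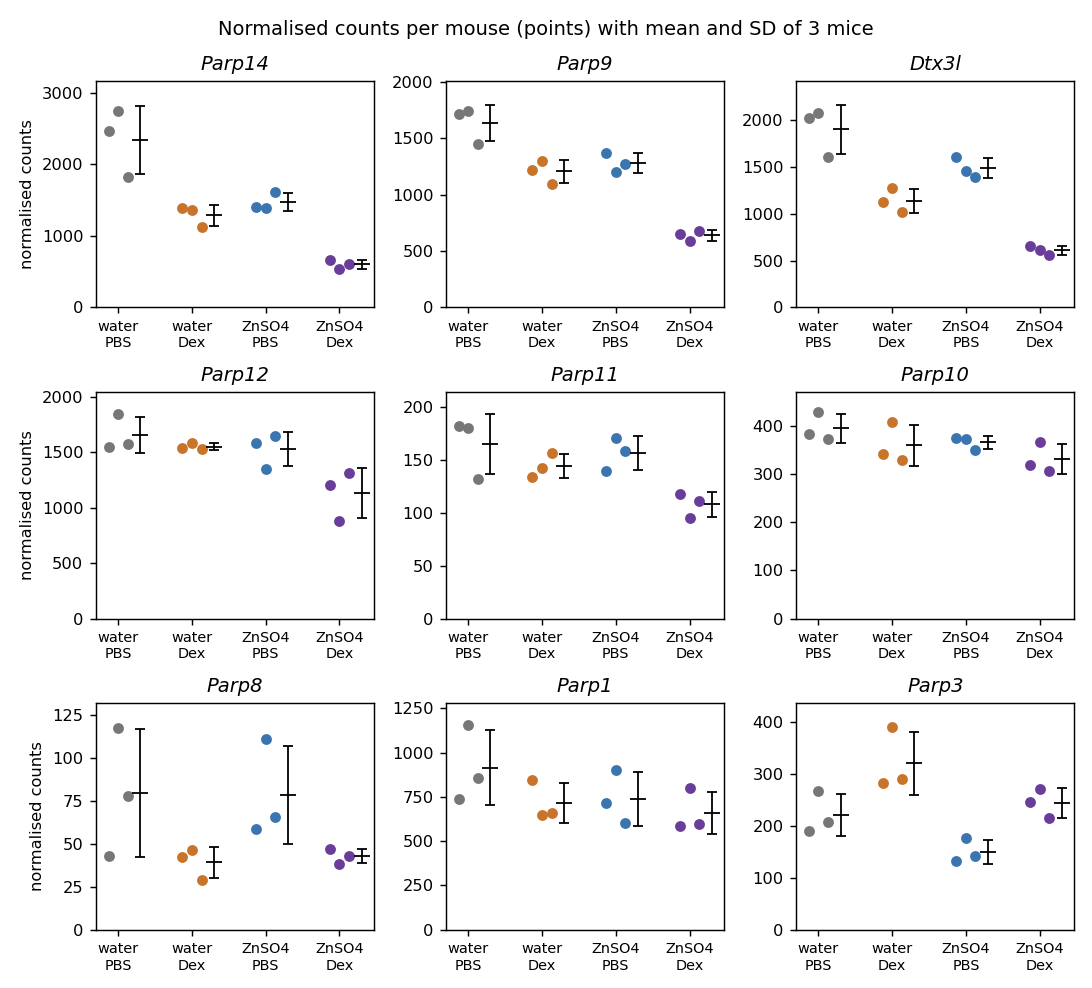
Normalised counts (vertical axis, from 0) of the 9 genes in each mouse (points) of the 4 groups, with mean and SD of 3 mice (black bars). Parp14, Parp9 and Dtx3l stood at 538.0 to 679 in the ZnSO4 + Dex mice, below every mouse of the other groups, whereas Parp3 was highest with Dex alone.

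ZnSO4 alone was compared with water in mice injected with PBS, to find what the zinc water itself did. A gene was called changed at an adjusted p under 0.05 (edgeR quasi-likelihood test, Benjamini-Hochberg over all genes tested). Parp14 was the only member called, with a log2 fold change (LFC) of -0.67 (SE 0.14, adjusted p = 0.0248), so that 1 of 9 members was called lower against 2.54% of all genes called lower in this comparison. The LFC stayed between -0.542 and -0.823 when any single mouse was left out. The call was lost without water + PBS replicate 1 or 2 or without ZnSO4 + PBS replicate 1, 2 or 3 (adjusted p between 0.0529 and 0.101), fits with 2 mice in that group, and when only these groups were fitted (0.0709). Parp9 (LFC -0.35, SE 0.095, adjusted p = 0.0600), Dtx3l (-0.36, SE 0.11, 0.106) and Parp3 (-0.56, SE 0.18, 0.0973) did not pass, although all their ZnSO4 mice lay below all their water mice. For Dtx3l this separation was only 1603 against 1604 normalised counts, and the share of all genes so separated is not given here. Without water + PBS replicate 3 Parp9 and Dtx3l passed (adjusted p = 0.0386 and 0.0463), Parp9 passed without ZnSO4 + Dex replicate 2 (0.0445), and DESeq2 called Parp9 as well as Parp14 (0.0374).

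Dex alone was compared with PBS in mice on normal water. Dtx3l fell (LFC -0.74, SE 0.11, adjusted p = 0.00165), as did Parp14 (-0.86, SE 0.15, 0.00272) and Parp9 (-0.44, SE 0.095, 0.0122), so that 3 of 9 members were called lower against 4.51% of all genes. Parp9 was no longer called without water + PBS replicate 1 (adjusted p = 0.0532), without water + PBS replicate 2 (0.0516) or without water + Dex replicate 3 (0.0693). Parp3 had an LFC of +0.54 (SE 0.17, adjusted p = 0.0784) with no overlap between the groups, and passed without water + PBS replicate 2 (0.0409) and with DESeq2 (0.0404). Parp8 had an LFC of -1.01 with a wide error (SE 0.35, adjusted p = 0.103) and passed without water + PBS replicate 1 (0.0276).

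ZnSO4 was then compared with water among the mice that all received Dex. Parp14, Parp9 and Dtx3l fell here too. Parp14 had an LFC of -1.09 (SE 0.15, adjusted p = 0.00232), Parp9 of -0.92 (SE 0.097, 0.000694) and Dtx3l of -0.90 (SE 0.12, 0.00185). Thus 3 of 9 members were called lower against 2.54% of all genes. Parp12 (LFC -0.45, SE 0.13, adjusted p = 0.0851) and Parp11 (-0.42, SE 0.15, 0.153) did not pass, and Parp12 did with DESeq2 (0.0330) and without ZnSO4 + Dex replicate 3 (0.0426). Whether the effect of ZnSO4 differed between Dex and PBS is the interaction, given further on.

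Dex was also compared with PBS among the mice that all drank ZnSO4. Dtx3l (LFC -1.28, SE 0.12, adjusted p = 3.11e-05), Parp9 (-1.003, SE 0.097, 4.77e-05) and Parp14 (-1.28, SE 0.15, 0.000162) fell, and Parp11 fell less (-0.53, SE 0.15, 0.0364). These 4 of 9 members stood against 7.08% of all genes called lower. Parp3 was the only member that rose (LFC +0.70, SE 0.18, adjusted p = 0.0202), against 6.65% of all genes called higher. The Parp11 call was lost without ZnSO4 + PBS replicate 2 or 3 or any of the ZnSO4 + Dex mice (adjusted p between 0.0540 and 0.120), and the Parp3 call without ZnSO4 + PBS replicate 1 or 3 or ZnSO4 + Dex replicate 1 or 2 (between 0.0581 and 0.0850). Parp12 just missed the threshold (LFC -0.43, SE 0.13, adjusted p = 0.0529); DESeq2 called it (0.0233), as did the fits without ZnSO4 + PBS replicate 2 (0.0456) or ZnSO4 + Dex replicate 3 (0.0233).

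Against the water + PBS mice, those given both ZnSO4 and Dex had lower Parp14 (LFC -1.96, SE 0.15, adjusted p = 6.71e-06), Dtx3l (-1.64, SE 0.12, 4.04e-06), Parp9 (-1.36, SE 0.098, 4.04e-06), Parp11 (-0.61, SE 0.15, 0.0131) and Parp12 (-0.55, SE 0.13, 0.0119). These 5 of 9 members were read against a background of 11.9% of all genes called lower. The levels left were 25.8% of water + PBS for Parp14, 32.1% for Dtx3l, 39.1% for Parp9, 65.6% for Parp11 and 68.3% for Parp12. All 5 calls held when any single mouse was left out. With the study's LFC limit of 0.8 added, the members called lower were 3 here (Parp14, Dtx3l and Parp9, against 4.56% of all genes), 3 for Dex on ZnSO4 (2.40%), 3 for ZnSO4 among Dex mice (1.20%), 1 for Dex on water (Parp14, 1.64%) and none for ZnSO4 alone (0.954%). The calls of Parp11 and Parp12 were lost when only these groups were fitted (adjusted p = 0.0512 and 0.0510).

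**Figure D2:**
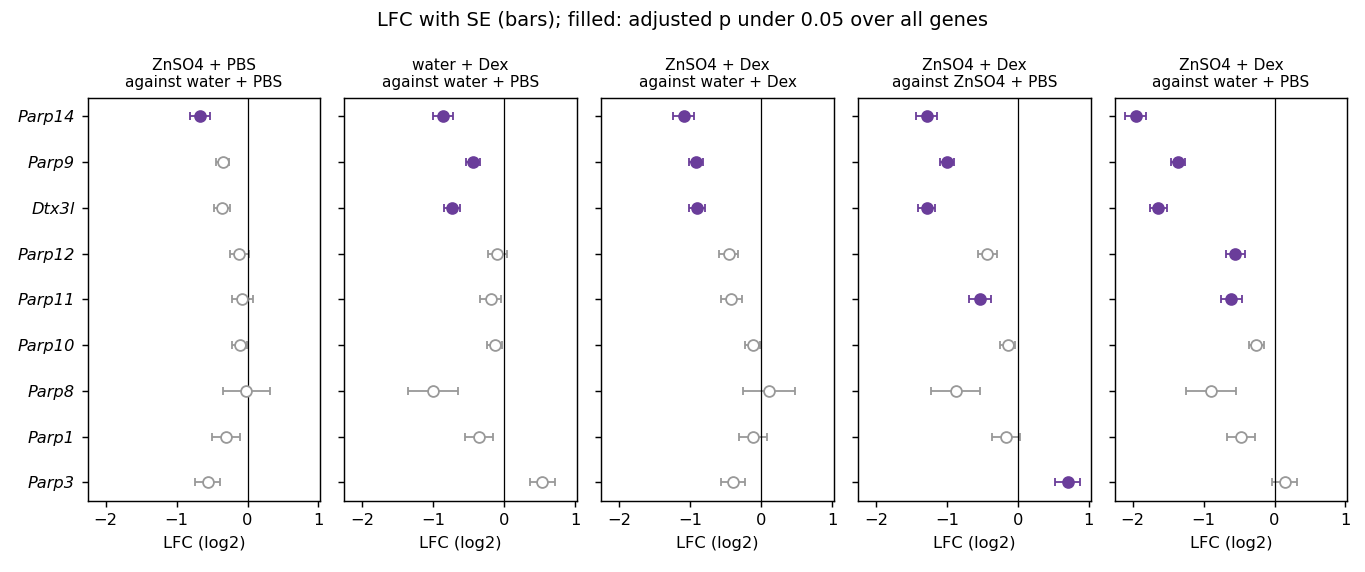
LFC (horizontal axis, log2) with its SE (bars) of the 9 genes in the 5 comparisons of groups. Filled points mark calls (adjusted p under 0.05), and Parp14 is filled in all panels, from -0.67 for ZnSO4 alone to -1.96 for both against water + PBS.

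In the ZnSO4 + Dex mice Parp9 and Dtx3l stood below the level at which the separate LFCs of ZnSO4 and of Dex would place them, but no interaction passed the adjusted test. If the separate LFCs added up, Parp9 would be at 57.7% of water + PBS, and the fitted level was 39.1% (interaction LFC -0.56, SE 0.14). For Dtx3l the same values were 46.9% and 32.1% (-0.55, SE 0.16), and for Parp14 34.5% and 25.8% (-0.42, SE 0.21). The adjusted p was 0.952 for each of these 3 genes. Of all 15938 genes, edgeR called 0 interactions (0% of all) and DESeq2 called 0. At an unadjusted p under 0.05 there were 794 genes (4.98%), among them Parp9 and Dtx3l (unadjusted p = 0.00146 and 0.00593 in the edgeR fit). In none of the 9 members was the interaction called when any mouse was left out.

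The ratio of Dtx3l to Parp9 counts was lower in the mice injected with Dex. It was 1.18, 1.19 and 1.10 in the water + PBS mice and 1.17, 1.21 and 1.09 in the ZnSO4 + PBS mice, against 0.922, 0.978 and 0.926 in the water + Dex mice and 1.01, 1.04 and 0.822 in the ZnSO4 + Dex mice. No Dex mouse reached the lowest PBS mouse. This ratio was chosen after its values were seen and was not tested, and reads from the exonic stretch that both genes share may have been counted for either.

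In ZnSO4 + Dex against water + PBS, most neighbours of the 3 genes had LFCs nearer 0. Within 250000 bases on either side, 8 other genes were tested, a set chosen after the values of the members were seen. Against water + PBS, the ZnSO4 + Dex mice had lower Dirc2 (LFC -0.65, SE 0.10, adjusted p = 0.000775), Hspbap1 (-0.41, SE 0.12, 0.0243) and Wdr5b (-0.64, SE 0.18, 0.0242) and higher Fam162a (+0.54, SE 0.16, 0.0304). Thus 3 of the 8 were called lower, against 11.9% of all genes, and 1 higher, as were 1828 of all 15938 genes. The nearest protein-coding gene to the right of Parp9, the importin Kpna1, had an LFC of 0.00478 (SE 0.10). The other 3, the predicted gene Gm15564, Ccdc58 and 2010005H15Rik, were not called either. With Dex alone, Wdr5b (LFC -0.75, adjusted p = 0.0213) and Fam162a (+0.91, 0.00356) were at least as far from 0 as Dtx3l (-0.74) and Parp9 (-0.44). These were 1 of the 8 called lower, against 4.51% of all genes, and 1 higher, as were 863 of all 15938 genes. With ZnSO4 alone 0 of the 8 were called, but Hspbap1 (LFC -0.36) and Dirc2 (-0.31) were close to Dtx3l (-0.36) and Parp9 (-0.35).

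**Figure D3:**
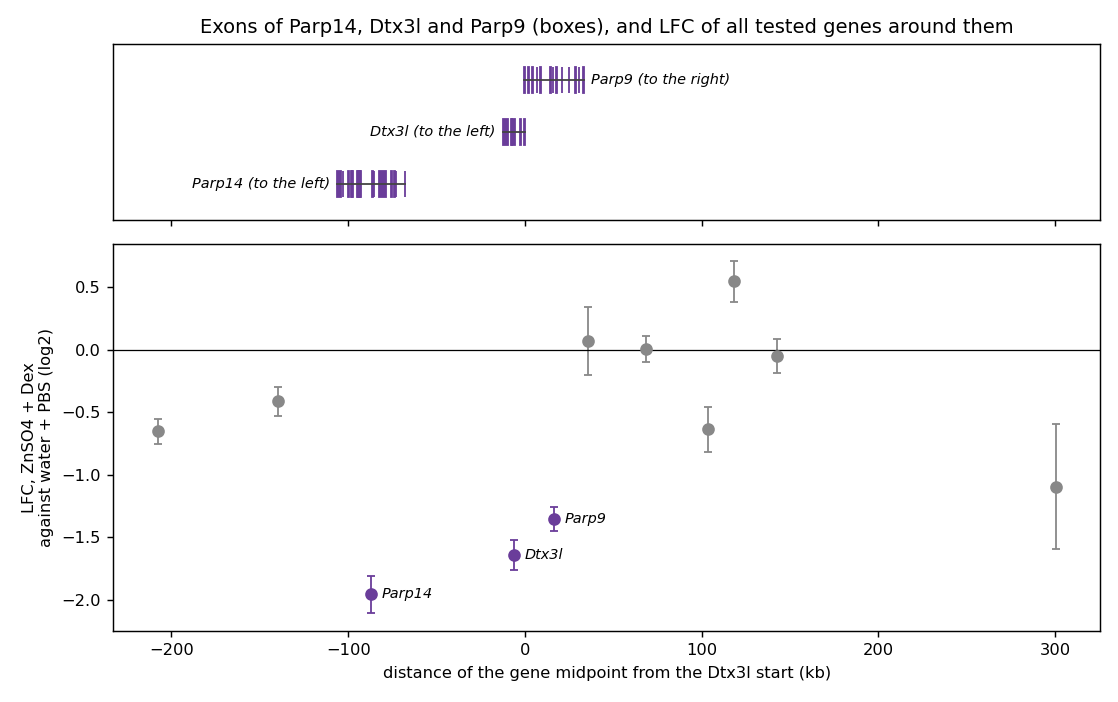
Top, exons (boxes) of Parp14, Dtx3l and Parp9 by distance in kb from the start of Dtx3l. Bottom, LFC (log2, bars are SE) of ZnSO4 + Dex against water + PBS for all tested genes around them by gene midpoint on the same axis, with the 3 named genes between -1.36 and -1.96 and the well-measured neighbours between -0.65 and +0.54; the far right point is 2010005H15Rik with a wide SE of 0.50.

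Parp12 and Parp11, both mono-ADP-ribosyltransferases, formed a second tier in which only the combined group stood apart. Parp12, which has CCCH zinc fingers, had 1548, 1841 and 1577 normalised counts in the water + PBS mice, 1533, 1585 and 1527 with Dex, 1579, 1351 and 1647 with ZnSO4, and 1200, 878 and 1313 with both. Its first 3 groups overlapped, and all ZnSO4 + Dex mice lay below them. Parp11, found at nuclear pores, was much scarcer, with 182, 181 and 132 in water + PBS, 134, 143 and 157 with Dex, 139 to 171 with ZnSO4, and 118, 95.1 and 111 with both. Again the first 3 groups overlapped, and the ZnSO4 + Dex mice were below all others. With ZnSO4 alone the LFC was -0.12 (SE 0.13) for Parp12 and -0.08 (SE 0.15) for Parp11, and with Dex alone -0.10 (SE 0.13) and -0.19 (SE 0.15).

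Parp10, another mono-ADP-ribosyltransferase known to be induced by interferon, differed little. Its normalised counts were 383, 428 and 373 in the water + PBS mice, 329 to 407 with Dex, 350 to 374 with ZnSO4, and 319, 366 and 307 with both. The ZnSO4 + Dex mice lay below the water + PBS mice without overlap, but the LFC of -0.26 (SE 0.10) did not pass (adjusted p = 0.0991). No comparison called Parp10, and its largest LFC in size was this value.

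Parp3 went the other way from the rest under Dex. This enzyme, which acts at DNA double-strand breaks, had 190, 267 and 208 normalised counts in the water + PBS mice, 282, 391 and 291 with Dex, 132, 177 and 142 with ZnSO4, and 247, 272 and 215 with both. All water + Dex mice were above all water + PBS mice, all ZnSO4 + PBS mice were below them, and the mice given both overlapped with water + PBS (LFC +0.14, SE 0.17, adjusted p = 0.593).

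Parp1 and Parp8 were called in no comparison. Parp1, the main sensor of DNA strand breaks, had 739, 1153 and 854 normalised counts in the water + PBS mice, 647 to 847 with Dex, 600 to 901 with ZnSO4, and 588 to 798 with both, so that all 4 groups overlapped. Parp8, whose role is little known, had the lowest counts of the 9, with 42.8, 117 and 77.9 in water + PBS, 29.2 to 46.4 with Dex, 58.5 to 111 with ZnSO4, and 38.4 to 46.7 with both. The SD of Parp8 was 47.0% of the mean in water + PBS, the widest spread between mice among the members in that group. In ZnSO4 + Dex it was 9.66%, narrower than that of Parp12 (19.95%) or Parp1 (17.9%). Its LFCs with Dex were -1.01 on water, where the groups overlapped, and -0.88 on ZnSO4, where all Dex mice lay below all PBS mice, and neither passed (adjusted p = 0.103 and 0.130).

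The spread of Parp1 and Parp8 moved with lymphocyte markers. The summed level of 8 B cell markers, all detected, ranged within each group from 29.3 to 649 CPM (counts scaled to library size) in water + PBS, 15.7 to 235 in water + Dex, 12.3 to 486 in ZnSO4 + PBS and 13.2 to 71.5 in ZnSO4 + Dex. The mice with the highest sum were water + PBS 2, water + Dex 1, ZnSO4 + PBS 2 and ZnSO4 + Dex 3, and 3 of these had the highest Parp1 of their group. After the group means were removed, Parp1 and Parp8 had a Pearson r of 0.780 and 0.730 with the log2 B cell sum over the 12 libraries, whereas Parp9, Parp14 and Dtx3l had 0.0797, 0.0200 and 0.0207. With the log2 sum of the T cell markers given below, Parp1 and Parp8 had a like r of 0.773 and 0.807. Parp3 had 0.723 with the T cell sum and 0.294 with the B cell sum. These are descriptions over libraries that share depth and dissection. The median LFC of the 8 B cell markers was -3.45 in ZnSO4 + Dex against water + PBS, a difference that no marker carried past the threshold at this spread. The part of B cells or T cells in the levels of Parp1, Parp8 and Parp3 was not tested.

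Most T cell markers were called lower in ZnSO4 + Dex against water + PBS, and Parp14, Parp9 and Dtx3l were lowest in that group. The summed level of 8 T cell markers, all detected, was 86.8 to 174 CPM in water + PBS, 82.6 to 108 in water + Dex, 42.5 to 104 in ZnSO4 + PBS and 46.0 to 46.9 in ZnSO4 + Dex. Against water + PBS, 6 of the 8 were called lower in ZnSO4 + Dex (11.9% of all genes), and 3 of the 8 were called lower against water + Dex (2.54% of all genes). With Dex alone, where Parp14, Parp9 and Dtx3l were called lower, 0 of the 8 were called (4.51% of all genes lower). With ZnSO4 alone 1 of the 8 was called lower (2.54% of all genes). Over the 12 libraries the log2 T cell sum had an r of 0.716 with Parp9, 0.713 with Parp14 and 0.679 with Dtx3l, and of 0.162, 0.198 and 0.393 after the group means were removed. Plasma cell markers (4 of 5 lower) and goblet cell markers (4 of 6 higher, as were 1828 of all 15938 genes) also differed between ZnSO4 + Dex and water + PBS, and the part of these cells in the members' differences was not tested. The mice with the highest B cell sum were also left out together, 1 per group, a fit added after the data were seen. Against water + PBS, the ZnSO4 + Dex mice then had 4 members called lower, Parp14, Dtx3l, Parp9 and Parp12, and Parp11 was no longer called (adjusted p = 0.104).

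With those 4 mice left out, 1 member was called for Dex on water (Parp3, higher, LFC +0.78, adjusted p = 0.0390). Dtx3l had an LFC of -0.66 and Parp14 of -0.79 there, and both missed the threshold (adjusted p = 0.0571 and 0.0526), as did Parp9 (-0.40, 0.145). For ZnSO4 among Dex mice only Parp9 remained called, while Parp14 (LFC -1.04, adjusted p = 0.0546) and Dtx3l (-0.85, 0.0598) just missed it. For ZnSO4 with PBS, Parp14 had an LFC of -0.50 and was not called (adjusted p = 0.234). The groups then held 2 mice each, and the share of all genes called in this fit is not given here.

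Levels can be compared between genes only per length, so that RPKM values (counts divided by exon length and library size) were computed. In the water + PBS mice Parp12 was highest with a mean of 36.4, followed by Parp9 and Dtx3l at 26.2 to 31.5 and 24.6 to 31.9 in single mice, then Parp14 at 22.1, Parp1 at 15.2, Parp10 at 7.66 to 8.81, Parp3 at 5.26, Parp11 at 2.06 and Parp8 at 0.785. The ranges of Parp9 and Dtx3l, of Dtx3l and Parp14, and of Parp14 and Parp1 overlapped, and the other neighbours in this order did not. In the ZnSO4 + Dex mice Parp12 was still highest at 24.9, but Parp14 had moved from above Parp1 and Parp10 to below both, at 5.08 to 6.30 RPKM against 9.76 to 13.3 for Parp1 and 6.30 to 7.53 for Parp10.

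**Figure D4:**
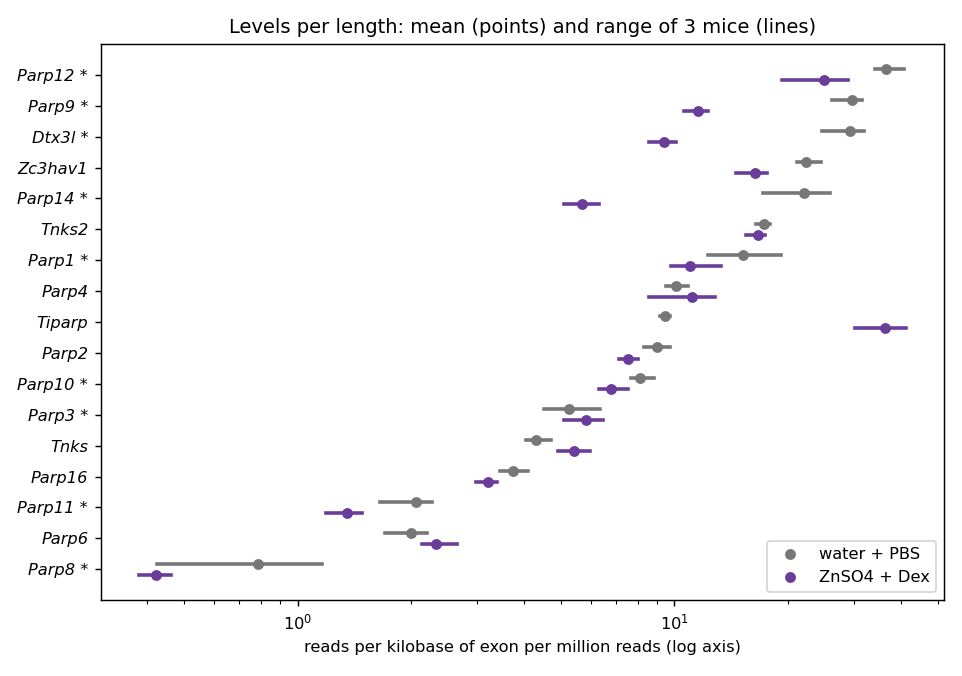
Mean (points) and range (lines) over 3 mice of the level per length (RPKM, log axis) of the 17 genes in water + PBS (grey) and ZnSO4 + Dex (purple), with an asterisk on the 9 genes described here. Parp14 dropped from 22.1 to 5.70, and Tiparp, which is not among the 9, rose from 9.44 to 36.2.

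Of the 8 family members outside the list, 3 were called in at least 1 comparison. The share of all genes called in at least 1 comparison is not given here. In ZnSO4 + Dex against water + PBS, 2 of the 8 were called higher and 1 lower, against 23.3% of all genes in either direction. Tiparp, a target of the aryl hydrocarbon receptor, rose with Dex on water (LFC +2.08, SE 0.12, adjusted p = 1.71e-06) and on ZnSO4 (+2.01, SE 0.12, 1.69e-06); its normalised counts were 454 to 482 in water + PBS, 1728 to 2114 with Dex, 415 to 487 with ZnSO4 and 1495 to 2041 with both. The tankyrase Tnks rose with Dex on water (LFC +0.38, SE 0.086, adjusted p = 0.0148) and in ZnSO4 + Dex against water + PBS (+0.33, SE 0.086, 0.0160). Zc3hav1, the antiviral protein ZAP, fell with ZnSO4 among Dex mice (LFC -0.41, SE 0.088, adjusted p = 0.0241) and in ZnSO4 + Dex against water + PBS (-0.45, SE 0.088, 0.00376). The other 5, Parp2, Parp4, Parp6, Parp16 and Tnks2, were called in no comparison. Parp4, whose start region holds the overlapping ISRE cores shown above, had an LFC of +0.14 in ZnSO4 + Dex against water + PBS, where Parp11 had -0.61.

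Genes of the interferon response were also called lower. Of 20 interferon-stimulated genes, 10 were called lower with ZnSO4 alone (2.54% of all genes), 4 with Dex alone (4.51%), 13 with ZnSO4 among Dex mice (2.54%), 7 with Dex among ZnSO4 mice (7.08%) and 16 in ZnSO4 + Dex against water + PBS (11.9%), where the median LFC of the 20 was -0.88 against -0.01 over all genes. Ifit1, which binds foreign RNA, had mean normalised counts of 655 ± 177 (SD, n = 3) in water + PBS, 354 ± 20.9 with Dex, 356 ± 94.8 with ZnSO4 and 82.3 ± 7.81 with both, so that for Ifit1 the Dex and ZnSO4 groups did not differ beyond their spread. Zbp1, a sensor of nucleic acids, moved otherwise: it was at 851 ± 225 and 848 ± 86.6 on water and at 169 ± 24.2 and 148 ± 37.6 on ZnSO4, with little difference between PBS and Dex. In ZnSO4 + Dex against water + PBS the LFC was -2.99 for Ifit1 and -2.52 for Zbp1. The ubiquitin-like modifier Isg15 (-1.80), the immunoproteasome subunit Psmb8 (-1.27) and Oasl2 (-1.23) fell as well. The genes of this list called higher were Usp18, which removes Isg15 from proteins, with Dex on water (+2.52, SE 0.31) and on ZnSO4 (+1.90, SE 0.32), and the GTPase Irgm1 with Dex on ZnSO4 (+0.57, SE 0.15, adjusted p = 0.0293). Both were singled out after their values were seen.

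Of the 13 JAK, STAT and IRF genes, 3 were called lower with ZnSO4 alone (2.54% of all genes), 3 with Dex alone (4.51%), 4 with ZnSO4 among Dex mice (2.54%), 8 with Dex among ZnSO4 mice (7.08%) and 7 in ZnSO4 + Dex against water + PBS (11.9%). None of the 13 was called higher in these 5 comparisons. Irf1, an interferon-induced transcription factor, had mean normalised counts of 3069 ± 460 in water + PBS, 1358 ± 61.2 with Dex, 1758 ± 94.5 with ZnSO4 and 877 ± 39.6 with both. All 3 treated means of Irf1 lay below that of water + PBS. In ZnSO4 + Dex against water + PBS, Irf1 had an LFC of -1.81, Irf8 of -1.85, Stat2 of -0.95 and Irf7 of -0.92. Of the interferon ligands and receptors, 6 of 10 were tested. The interferon lambda receptor Ifnlr1 fell with Dex on water (LFC -0.95, SE 0.19, adjusted p = 0.00713), and Ifnar2, a subunit of the receptor for type I interferon, in ZnSO4 + Dex against water + PBS (-0.64, SE 0.20, 0.0345).

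Genes that supply the substrate of PARP enzymes or remove ADP-ribose changed in both directions. Of 11 genes of NAD supply and use tested, 3 were called lower and 1 higher in ZnSO4 + Dex against water + PBS, where 23.3% of all genes were called in either direction, with Cd38, an enzyme that splits NAD+, at an LFC of -1.59 (SE 0.14, adjusted p = 1.70e-05). Cd38 also fell with ZnSO4 alone (-1.22, SE 0.14, 0.000899), and Nampt, which makes the precursor of NAD+ from nicotinamide, fell with ZnSO4 among Dex mice (-0.46, SE 0.084, 0.0111). Naprt (-0.31) and Nmrk1 (-0.66) were lower and Nmnat3 (+0.73) higher in ZnSO4 + Dex. Of 8 genes for enzymes that remove ADP-ribose, 2 were called in that comparison: Macrod1 was higher (LFC +0.57, SE 0.13, adjusted p = 0.00727) and Adprh lower (-0.41, SE 0.11, 0.0203), and Nudt16 rose with ZnSO4 alone (+0.43, SE 0.11, 0.0428) and fell with Dex among ZnSO4 mice (-0.37, SE 0.11, 0.0394). Among 9 genes of strand-break repair, Aplf was higher (+0.39) in ZnSO4 + Dex against water + PBS. Of the 4 other Deltex ligases, 2 were called lower in ZnSO4 + Dex against water + PBS, where 11.9% of all genes were. They were Dtx4 (LFC -0.43, SE 0.10, adjusted p = 0.0115) and Dtx1 (-1.56, SE 0.46, 0.0303). The normalised counts of Dtx1 were uneven between the water + PBS mice (218 ± 142, SD, n = 3). Dtx4 was also called lower with Dex alone (-0.53, SE 0.11, 0.0075).

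The genes whose level followed a member most closely over the 12 libraries were named by Pearson's r of log2 CPM, among 14970 genes with a mean CPM of at least 1. For Dtx3l these were Znfx1, an antiviral helicase (r = 0.994), Parp9 (0.975) and Tnfsf10, the death ligand TRAIL (0.975). For Parp9 they were Armc8 (0.986), Ifit1 (0.981) and Parp14 (0.981), and for Parp14 Parp9, Armc8 (0.981) and Znfx1 (0.975). With the group means removed, Dtx3l had an r of 0.931 with Znfx1, 0.922 with Tnfsf10 and 0.723 with Parp9. Parp9 and Parp14 then had 0.778 with each other, and 0.909 and 0.822 with Armc8. The r fell to 0.616 for Parp9 with Ifit1 and to 0.566 for Parp14 with Znfx1. Parp12 was most like Litaf (0.966), Espn and Tor2a, Parp11 like Kif3b (0.944), Plekhm1 and Sp1, and Parp10 like Klk8 (0.928), Parp2 and Clec7a. Parp3 was most like Eaf2 (0.954), Padi2 and C1qa, Parp1 like Xpo6 (0.954), Pip4k2b and Bcl2a1d, and Parp8 like Nfkbie (0.950), Sesn3 and Shisa3. These values describe 12 libraries in 4 groups and carry no test.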

How the data were processed

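Per the labels and the study's methods, the authors trimmed single-end reads of stranded libraries with Trimmomatic, aligned them with HISAT2 2.0.4 to mm10 and counted reads per gene with featureCounts, leaving out reads with several alignments. The deposited values are raw counts for 54838 Ensembl genes in 12 libraries. The annotation release and strand setting are not given in the sources used here.

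Columns were matched to mice by treatment code and replicate number. The members and all gene lists were chosen with earlier results of these data known. Genes were kept with edgeR 4.0.16 filterByExpr by group (minimum count 10), scaled with TMM factors and fitted with 1 mean per group (glmQLFit, glmQLFTest). The comparisons were 5 between groups and the interaction, with Benjamini-Hochberg adjustment over 15938 genes. SE is the LFC divided by the square root of F. Depth was 10760132 to 11827487 counts, with a common biological coefficient of variation of 0.191. Separate mice are the replicates, and 3 against 3 cannot give an exact permutation p below 0.1, so p-values come from the model. RPKM used exon lengths of GENCODE M21. Of the further lists, up to 5 called genes with the smallest adjusted p were named, and for each member the 3 genes with the highest r. Values of some genes that this rule names are not reported here. Alternatives were DESeq2 1.42.0, other scalings and filters, a replicate block, fits of only the groups compared, the study's LFC limit of 0.8 and leaving out each library. The scripts were tested on simulated data.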

Additional observations from a re-analysis of the deposited data

How the results depend on the processing

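The number of members called for ZnSO4 + PBS against water + PBS was 1, with 4.66% of all genes called in either direction. It became 2 with DESeq2 (6.97% of all genes) and 2 with a minimum of 10 counts in every library (5.93%). It was 0 to 3 when a single mouse was left out (1.74% to 6.19%), 0 with only the groups compared (2.67%), and 0 with an LFC above 0.8 in size as well. With that LFC limit the numbers were 1 in place of 3 for Dex on water, 3 in place of 5 for Dex on ZnSO4 and 3 in place of 5 for ZnSO4 + Dex against water + PBS. Only the groups compared gave 3 for the last (16.6% of all genes called, 23.3% in the main fit). Leaving out a mouse gave 3 to 5 for Dex on ZnSO4 (9.18% to 13.4% of all genes, 13.7% in the main fit). The cause of these moves was not tested. Without the mice highest in B cell markers, 1 member in place of 3 was called for Dex on water, 1 in place of 3 for ZnSO4 among Dex mice and 0 for ZnSO4 alone, with 2 mice a group. The share of all genes called in that fit is not given here.

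Changes of direction were seen only in LFCs that were not called. Parp8 for ZnSO4 alone was 0.0135 with upper-quartile factors, 0.0396 without the B cell mice and between -0.351 and 0.374 without single mice. Parp12 for ZnSO4 alone was 0.0454 without the B cell mice, and Parp1 was then 0.0875 for ZnSO4 among Dex mice and 0.0714 for Dex on ZnSO4. Parp10 for the interaction was 0.0113 with upper-quartile factors. Without single mice, Parp11 for ZnSO4 alone ran from -0.212 to 0.0191, Parp1 for ZnSO4 among Dex mice from -0.275 to 0.0203, Parp8 there from -0.0581 to 0.26, Parp1 for Dex on ZnSO4 from -0.319 to 0.00358, and the interactions of Parp1 from -0.0104 to 0.356, Parp8 from -0.262 to 0.464 and Parp10 from -0.0887 to 0.0856. RLE factors changed no call.

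Same-numbered mice did not deviate together (median r -0.0557 over 18 pairs of libraries, against 0.0225 over 36 pairs with different numbers, and 4 of 12 libraries correlated best with their own number), so the numbers are not taken as a pairing. With the replicate block, 3 members were called for ZnSO4 alone (Parp3 0.0209 and Dtx3l 0.0471 added), against 3.62% of all genes in either direction. Parp3 was added for Dex on water (0.00934), Parp10 for both against water + PBS (0.0403), and Parp11 was lost for Dex on ZnSO4 (0.0668). Parp8, with 27 to 121 counts in a library, had the widest SE among the members in the comparisons of groups (0.335 to 0.363).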
